A study of Mus musculus with 6 samples.

Results

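The genes described here are the heat shock proteins and the DnaJ cochaperones of mouse embryonic stem cells, chosen by symbol alone: each gene of the deposited table whose name begins with Hsp or Dnaj followed by one of the family letters or a digit. The rule found 57 of 10989 genes. By name they are 3 HSP90, 11 HSP70 and HSP110, 2 HSP60 and HSP10, 3 small HSP, 3 DNAJA, 9 DNAJB and 23 DNAJC genes, plus 3 (Hspb11, Hspbp1 and Hspbap1) that carry such a name without being chaperones of these classes.

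RNA sequencing was done on 4 cell lines with a disrupted Ddx5 gene (KO lines 1 to 4) and on 2 libraries of unedited cells (WT replicates 1 and 2). All were cells of the MPI-II line at passages 13 to 18. They were grown on feeder cells in serum with the cytokine LIF and inhibitors of MEK (PD0325901) and GSK3 (CH99021). Each KO line came from a single clone, edited in exon 2 of Ddx5 by a nicking form of Cas9 (SpCas9) with paired guides and selected with G418, a treatment that the labels do not report for the WT cells. Ddx5 is an RNA helicase, also called p68. The labels do not state that separate cultures gave the WT libraries, so p-values reflect the spread among these libraries, which may be technical.

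Chaperones bind unfolded stretches of other proteins and keep them from clumping. HSP70 proteins do this in cycles of ATP use. A DnaJ protein (also called HSP40) brings the client and triggers ATP splitting through its J domain, and an exchange factor such as an HSP110 then resets the cycle. HSP90 takes over late-folding clients, the HSP60 and HSP10 chamber folds proteins inside mitochondria, and small HSPs hold unfolded proteins without using ATP. Embryonic stem cells are known for a high level of many chaperones. Heat shock factor switches many of these genes on through heat shock elements in their promoters. For chaperones of the endoplasmic reticulum, the unfolded protein response does so, in part through the endoplasmic reticulum stress element.

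Promoters that hold these elements are shown first. Of the members they mark, Dnajc3 was lower in the KO lines in the test below, and the others did not pass. The 250 bases before the RefSeq gene start (GRCm38.p6, the same assembly as mm10) were searched on both strands, and 47 of the 57 members had such a window. The stress element was searched as CCAAT and CCACG with any 9 bases between them. It was found for 3 of the 47 members (6.38%) and for 35 of 27025 genes in all (0.13%). The heat shock element was searched as GAA, TTC and GAA with any 2 bases between neighbours, and was found for 3 of the 47 members (6.38%), against 139 of 27025 genes (0.514%). Capitals below mark the matches, and each sequence runs 5′ to 3′ on the strand of its gene. A match is a stretch of letters, not a shown binding site, and a window without one says only that these letters are not in it.
Dnajc3, chr14:118937682-118937931, plus strand: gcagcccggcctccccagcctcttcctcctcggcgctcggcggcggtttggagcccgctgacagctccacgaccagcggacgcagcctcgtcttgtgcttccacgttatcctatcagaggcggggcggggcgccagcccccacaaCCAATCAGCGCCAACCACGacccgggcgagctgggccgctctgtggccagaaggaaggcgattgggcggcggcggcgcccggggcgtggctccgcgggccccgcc
Hspa5, chr2:34771840-34772089, plus strand: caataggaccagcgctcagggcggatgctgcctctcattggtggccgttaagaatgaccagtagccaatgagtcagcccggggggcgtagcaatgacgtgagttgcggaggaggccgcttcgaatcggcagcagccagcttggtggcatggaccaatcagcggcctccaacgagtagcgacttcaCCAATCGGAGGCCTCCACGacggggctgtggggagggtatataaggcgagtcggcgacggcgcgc
Hsp90b1, chr10:86705445-86705694, minus strand: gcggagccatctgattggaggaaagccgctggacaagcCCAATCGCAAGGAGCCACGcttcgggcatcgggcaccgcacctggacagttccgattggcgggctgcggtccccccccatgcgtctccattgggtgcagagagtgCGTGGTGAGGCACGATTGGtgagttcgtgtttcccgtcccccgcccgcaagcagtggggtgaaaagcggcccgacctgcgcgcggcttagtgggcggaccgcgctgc
Dnajb11, chr16:22857595-22857844, plus strand, without a match to either element: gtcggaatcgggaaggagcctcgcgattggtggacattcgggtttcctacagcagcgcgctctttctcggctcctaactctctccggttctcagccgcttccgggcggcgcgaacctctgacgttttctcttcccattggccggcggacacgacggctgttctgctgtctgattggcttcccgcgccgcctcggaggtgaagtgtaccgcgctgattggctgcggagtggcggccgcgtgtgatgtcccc
Hspd1, chr1:55087933-55088182, minus strand: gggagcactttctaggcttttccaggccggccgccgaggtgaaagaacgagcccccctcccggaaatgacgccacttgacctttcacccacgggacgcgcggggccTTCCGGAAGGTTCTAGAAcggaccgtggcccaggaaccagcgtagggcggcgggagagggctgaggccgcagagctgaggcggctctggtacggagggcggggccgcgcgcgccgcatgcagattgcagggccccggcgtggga

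The members that hold the stress element are Dnajc3, Hspa5 and Hsp90b1, all proteins of the endoplasmic reticulum. In Hsp90b1 the letters occur on both strands, at 212 to 194 and at 107 to 89 bases before the start. The heat shock element was found for Hspd1, Hspe1 and Dnajb6. Hspd1 and Hspe1 stand head to head, and the window of Hspe1 (chr1:55087898-55088147, plus strand) covers the same run of letters read from the other strand, where it is 2 overlapping matches.

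The deposited values are a normalized score on a common distribution, given here in deposited units, and sequencing depth is unknown. Stem cell markers were high in all libraries. The 9 listed summed to between 121586 and 130778 units in KO lines and to 167133 and 99045 units in WT replicates 1 and 2. Dppa5a alone had 78894 and 17548 units in these WT replicates. Nanog was higher in KO (log2 0.89, adjusted p = 0.0154, limma) and Klf4 lower (log2 -0.94, adjusted p = 0.0116, limma). The other 7 did not pass. That is 22.2% called, against 17.1% of all genes. Ddx5 itself stood at 5659 to 12793 units in the KO lines, against 36433 and 36436 units in WT (log2 difference -2.23, adjusted p = 0.00807, limma). WT replicate 2 stood apart, with 131 genes listed at 0 against 13 to 19 in each other library. Of the 17 measured feeder fibroblast markers 15 fell in the KO lines, 88.2% against 7.34% of all genes. All 17 summed to 45628 to 49548 units in KO and to 95167 and 64041 units in WT replicates 1 and 2. Most of the KO sum was Fn1, which did not fall and had 36452 units in each KO line. Without Fn1 the other 16 summed to 9176 to 13096 units in KO and to 58715 and 34186 units in WT replicates 1 and 2. Col6a3 was the 1 listed at 0 in a library (KO line 4). The 1 measured primitive endoderm marker and the 3 trophoblast markers did not pass. The part of the feeder cells in the results below was not tested. In bulk RNA, fewer cells of a type and less RNA per cell cannot be told apart.

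Most of the chaperone genes showed no difference that passed the test. Of the 57 members 3 were higher in the KO lines (Hspa8, Dnaja3 and Dnajb5), 4 were lower (Dnajb11, Dnajc3, Dnajb12 and Dnajb14) and 50 did not pass. The test was limma on log2 values with Benjamini-Hochberg adjustment over all genes, and an adjusted p below 0.05 passed. The share called, 12.3%, stands beside 17.1% of all genes, so the family gave no more calls than the table at large. In each direction the background was 9.75% higher and 7.34% lower. An unadjusted p under 0.05 was reached by 19 members, against 36.0% of all genes. For 22 members the KO and WT values did not overlap (12 with KO above, 10 below), a share of 38.6% against 43.7% of all genes (24.1% above, 19.6% below). The median log2 difference of the members was 0.01, against 0.04 over all genes.

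The log2 differences of 29 of the 57 members were under 0.25 in size. For 23 the 95% interval lay within 0.5 on either side of 0, a 1.41-fold difference. Neither count was set beside a share over all genes. These 23 include Hsp90aa1 and Hsp90ab1, whose values are capped. A log2 difference of at least 1 in size was found for 4 members (Hspa12a, Hspb6, Dnajb5 and Dnajb4), 7.02% against 9.87% of all genes. Of these, Dnajb5 alone passed the test. That is 1.75% of the members, against 6.56% of all genes that were both called and changed at least 2-fold.

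**Figure D1:**
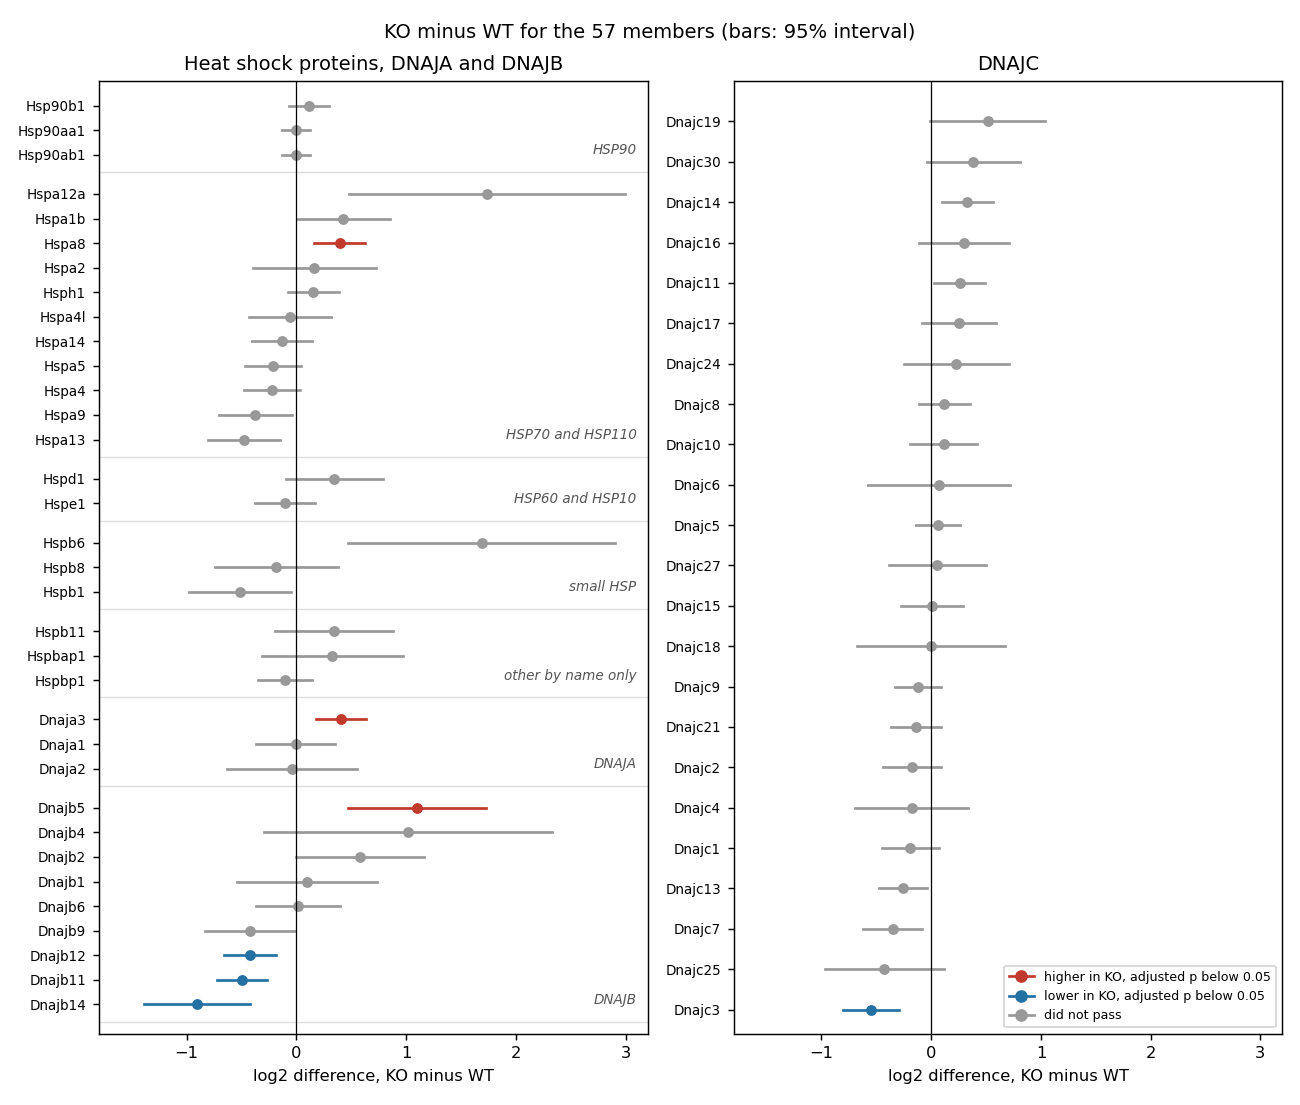
The log2 difference, KO minus WT, is plotted on the horizontal axis for each of the 57 members, grouped by class, with its 95% interval from the limma fit (4 KO lines, 2 WT libraries). The 4 called lower members are DNAJB and DNAJC genes, the 3 called higher ones come from HSP70, DNAJA and DNAJB, and most intervals cross 0.

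The 4 members that fell all encode DnaJ proteins of the endoplasmic reticulum. Dnajb11 (ERdj3, ENSMUSG00000004460), which binds unfolded proteins in the lumen and hands them to the HSP70 protein BiP, is on chromosome 16 (22857845 to 22879634, plus strand, mm10). Its values were 1232, 1164, 1152 and 1062 units in the KO lines, in order, against 1671 and 1583 units in the WT libraries. The groups do not overlap. The mean was 1152 ± 69.9 units in KO (SD, n = 4) and 1627 ± 62.2 in WT (SD, n = 2), a log2 difference of -0.49 (SE 0.0975, adjusted p = 0.0194, limma).

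Dnajc3 (p58IPK, ENSMUSG00000022136), a lumenal partner of BiP that also restrains kinases acting on translation, is on chromosome 14 (118937976 to 118981697, plus strand). Its values were 408, 370, 363 and 394 units in the KO lines, against 582 and 553 units in WT. Each KO line was below each WT library, and the means of 384 ± 20.9 and 568 ± 20.5 units gave a log2 difference of -0.55 (SE 0.11, adjusted p = 0.0202, limma). Its promoter is the one above with a stress element 105 to 87 bases before the start.

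Dnajb12 and Dnajb14 are related J proteins anchored in the membrane of the reticulum, facing the cytosol, where they work with HSP70 in the removal of misfolded membrane proteins. Dnajb12 (ENSMUSG00000020109, chromosome 10, 59879556 to 59899302, plus strand) stood at 709, 722, 766 and 668 units in the KO lines, against 982 and 950 units in WT. The spread within each group was small beside the gap between them (log2 -0.43, SE 0.0999, adjusted p = 0.032, limma). Dnajb14 (ENSMUSG00000074212, chromosome 3, 137867675 to 137916557, plus strand) had 106, 100, 118 and 96 units in KO and 176 and 249 in WT. Its log2 difference was the largest fall of the family, -0.91 (SE 0.205, adjusted p = 0.0279, limma), at a low level and with WT libraries further apart than those of the other 3 genes.

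**Figure D2:**
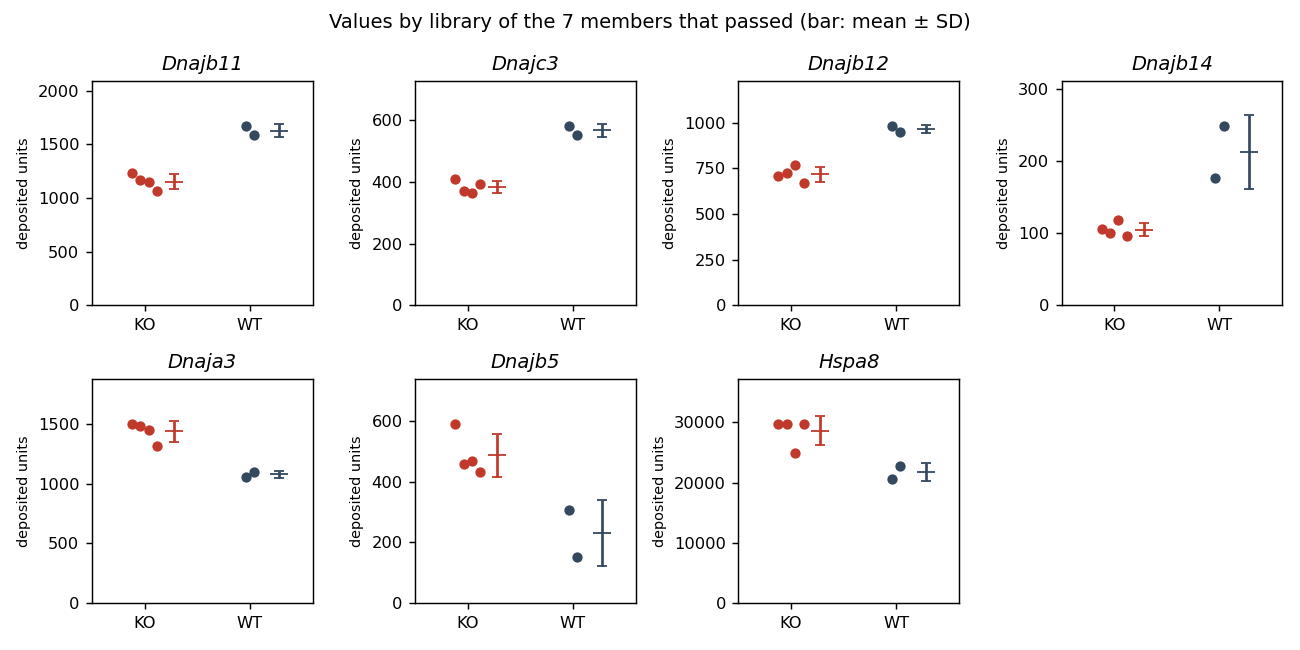
Deposited units are plotted on the vertical axis, from 0, for the 7 members that passed, with 4 KO lines left and 2 WT libraries right (points) and the mean ± SD beside each group (bars). In each panel the KO points lie on one side of both WT points, and Dnajb5 and Dnajb14 show the widest gap between the WT libraries.

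The other members of the endoplasmic reticulum give the setting of these falls. Of the 14 members placed in this compartment (a grouping made with their values known), 4 fell, none rose and 10 did not pass. Log2 differences were negative for 9 of the 14 and positive for 5. The share called lower, 28.6%, stands beside 7.34% of all genes (17.1% in either direction). With another 3 that did not pass, 7 of the 14 had all KO lines below both WT libraries, 50.0% against 19.6% of all genes. Hspa13, an HSP70-like protein of microsomes, had 407, 336, 354 and 380 units in KO and 576 and 466 in WT (log2 -0.48, adjusted p = 0.0562, limma). Dnajb9 (ERdj4), a J protein that keeps the stress sensor Ire1 in check, had 266, 282, 298 and 267 units in KO and 460 and 310 in WT (log2 -0.42, adjusted p = 0.128). The gap between the WT libraries is wider for Dnajb9 than the whole KO range. Dnajc1, a membrane J protein that binds BiP, lay at 500 to 588 units in KO and 620 and 630 in WT (adjusted p = 0.259).

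The most abundant chaperones of the reticulum did not pass. Hspa5 encodes BiP, the HSP70 partner of Dnajb11, Dnajc3 and Dnajb9, and stood at 8862, 9089, 7694 and 9370 units in KO, against 9370 and 10934 in WT. KO line 4 equals WT replicate 1, and the log2 difference of -0.21 did not pass (95% interval -0.47 to 0.04, adjusted p = 0.207, limma). Hsp90b1 (GRP94), the HSP90 of the reticulum, had 16051 units in KO lines 1, 2 and 4 and 14379 in KO line 3, against 14379 in both WT libraries (adjusted p = 0.306). So of the 3 members whose promoter holds the stress element, 1 fell and 2 did not pass, and Dnajb11 fell without these letters in its window.

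Dnajc14, a membrane J protein known for its part in receptor transport, went the other way without passing. It had 678, 732, 697 and 749 units in KO and 562 and 568 in WT (log2 0.33, adjusted p = 0.0603). Dnajc16 also had a positive difference, with 250 to 358 units in KO and 244 and 272 in WT (log2 0.30, adjusted p = 0.263, limma). Dnajc10 (ERdj5), a reductase that opens disulfide bonds, overlapped between groups with 1160 to 1452 units in KO and 1135 and 1362 in WT. Dnajc18 lay between the WT libraries in each KO line, with 283 to 384 units in KO and 480 and 224 in WT. Dnajc25 reached 90 to 118 units in KO and 174 and 118 in WT (adjusted p = 0.226).

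**Figure D3:**
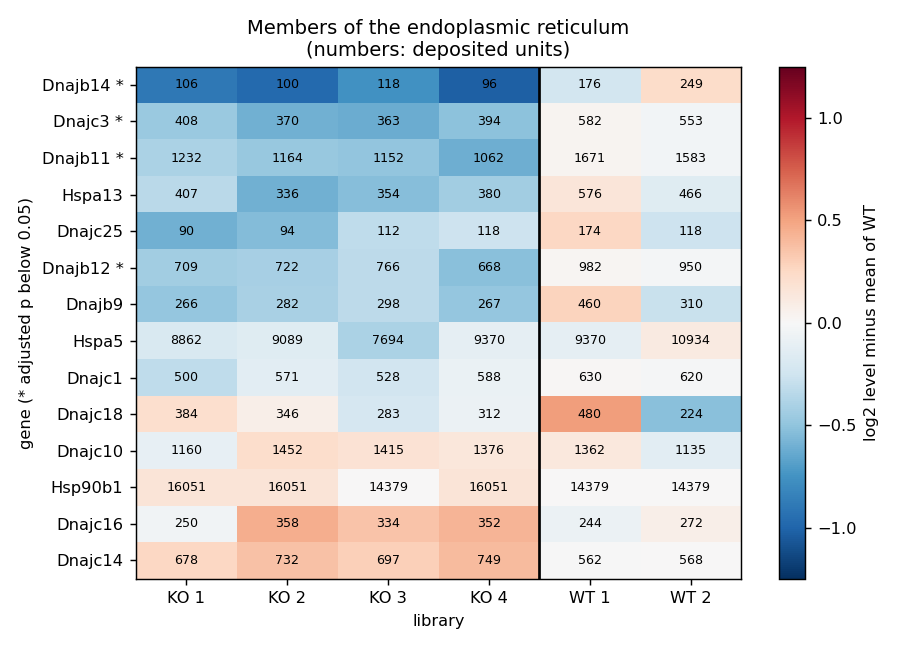
Colour shows the log2 level minus the mean of the WT libraries for the 14 members of the endoplasmic reticulum (rows, lowest difference at the top) in 4 KO lines and 2 WT libraries (columns), and numbers give deposited units. Rows marked with an asterisk passed the test, and the upper rows are blue in all 4 KO lines while those of Hsp90b1 and Dnajc14, near the bottom, are not.

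The wider unfolded protein response did not show a common direction. Of 30 measured genes of that list, 1 rose, 2 fell and 27 did not pass, with a median log2 difference of 0.00. That is 10% called against 17.1% of all genes, and 6.67% called lower against 7.34%. Derl1, a channel component for proteins leaving the reticulum, fell to 553, 581, 614 and 586 units in KO, against 921 and 1074 in WT (log2 -0.76, adjusted p = 0.00845, limma). Ppp1r15a (GADD34), which restores translation after stress, fell to 702, 783, 719 and 778 units in KO, against 1210 and 1198 in WT (log2 -0.68, adjusted p = 0.00828). Ero1l, an oxidase that forms disulfide bonds, was higher at 2505, 3444, 2376 and 4571 units in KO, against 1509 and 1597 in WT (log2 1.00, adjusted p = 0.0423). The RNA levels of Xbp1 and Atf4, output factors of the sensors, did not pass. Xbp1 had 487 to 772 units in KO and 439 and 793 in WT. Atf4 had 2934 to 3907 units in KO and 4456 and 3460 in WT. These gene totals show neither splicing nor protein, so the output of the sensors was not measured.

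Among the cytosolic HSP70 genes only Hspa8 passed. Hspa8 encodes Hsc70, the constitutive HSP70 of the cytosol (ENSMUSG00000015656, chromosome 9, 40800984 to 40810087, plus strand). It had 29812 units in KO lines 1, 2 and 4 and 24983 in KO line 3, against 20672 and 22770 units in WT. The KO lines were above both WT libraries by 1.32-fold in the means (log2 0.39, SE 0.0988, adjusted p = 0.0378, limma). The table moves in steps at this height: about 10 genes share each value within 1%, and the values of Hspa8 are steps 3 and 4 from the top in KO and 5 and 6 in WT. Its size on this scale therefore follows the gene's rank in each library. The call was lost with TMM scaling (adjusted p = 0.0743), with chromosome-median centring (adjusted p = 0.0774), without the mean-variance trend (adjusted p = 0.0779), with array weights (adjusted p = 0.264) and with the replicate block (adjusted p = 0.13), all in limma. It held with quantile normalization and with pseudocounts of 0.25 and 5. These settings left the log2 difference of this abundant gene at 0.39, and the values already share a distribution, so they hardly tested the call. The settings with no filter and with a filter at a scaled value of 5 removed no gene. They repeat the main fit and could not lose the call.

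The stress-inducible HSP70 gene did not pass. Hspa1b had 339, 372, 348 and 400 units in the KO lines and 328 and 216 in WT, with the KO lines just above WT replicate 1 (log2 0.43, adjusted p = 0.136, limma). Reads of Hspa1b may be shared with its near-identical neighbour Hspa1a, not analysed here, so its level is uncertain. Hspa2, a testis-enriched HSP70, overlapped with 108 to 173 units in KO and 104 and 141 in WT. Hspa14, which sits with a J protein on ribosomes, had 2093 to 2611 units in KO and 2464 and 2786 in WT.

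Hspa12a, a distant and low member, had the largest log2 difference of the family and did not pass. It stood at 100, 47, 62 and 84 units in KO, against 30 units in WT replicate 1, and was listed at 0 in WT replicate 2. The log2 difference was 1.74 with a 95% interval of 0.48 to 2.99 (adjusted p = 0.0636, limma). The exchange factors of the HSP110 branch did not pass. Hsph1 had 2546 to 2734 units in KO and 2191 and 2611 in WT, Hspa4 had 11462 to 13595 in KO and 13595 and 16069 in WT, and Hspa4l had 314 to 404 in KO and 318 and 404 in WT.

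The HSP90 genes of the cytosol cannot be compared in these values. Hsp90aa1 and Hsp90ab1, the inducible and the constitutive form, both sat at 78894 units in each of the 6 libraries, the cap that 10 genes share in each library. A difference that leaves a gene among those 10 would not show. Of the 27 measured HSP90 cochaperones, 1 rose, none fell and 26 did not pass, 3.7% called against 17.1% of all genes. The 1 was Stip1 (Hop), which links HSP70 to HSP90. It had 10386, 12796, 10386 and 12796 units in KO and 9090 and 7225 in WT (log2 0.51, adjusted p = 0.0494, limma), which passed in 1 of the 6 fits that each omitted a library.

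**Figure D4:**
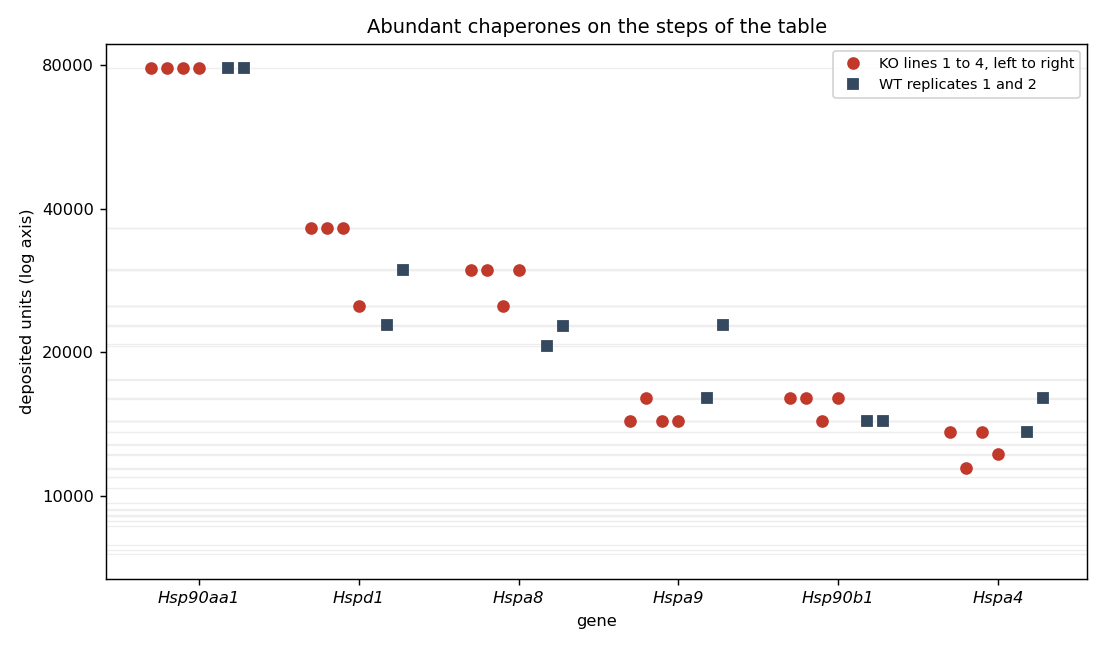
Deposited units on a log axis are plotted for 6 abundant chaperone genes in KO lines 1 to 4 (circles, left to right) and WT replicates 1 and 2 (squares), with pale lines at neighbouring values of the table. Points fall on shared steps: Hsp90aa1 is at the cap in all libraries, and Hspa8 lies at 24983 and 29812 in KO, above 20672 and 22770 in WT.

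Of the 8 members placed in mitochondria, 6 had positive and 2 had negative log2 differences. Hspd1 encodes HSP60, the main folding chamber of mitochondria. It had 36433 units in KO lines 1 to 3 and 24993 in KO line 4, against 22786 and 29828 in WT. KO line 4 lies between the WT libraries, and the log2 difference of 0.35 did not pass (adjusted p = 0.228, limma). Hspe1 encodes HSP10, the lid of that chamber, and shares the promoter region shown above. It had 5058, 4060, 4996 and 4336 units in KO and 5128 and 4750 in WT, a log2 difference of -0.10 (95% interval -0.38 to 0.17, adjusted p = 0.551). The 2 genes gave differences of opposite sign, and neither passed.

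Hspa9 (mortalin), the HSP70 of mitochondria, had 14390 units in KO lines 1, 3 and 4 and 16069 in KO line 2, against 16069 and 22832 in WT (log2 -0.37, adjusted p = 0.106, limma). Its partner Dnaja3 (Tid1, ENSMUSG00000004069, chromosome 16, 4639989 to 4707695, plus strand), which also maintains mitochondrial DNA, rose. It stood at 1506, 1488, 1454 and 1316 units in KO, against 1061 and 1102 units in WT. The groups do not overlap, and the means of 1441 ± 86.1 and 1082 ± 29 units differ by 1.33-fold (log2 0.41, SE 0.0966, adjusted p = 0.0327, limma). It passed in 1 of the 6 fits that each omitted a library.

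Further J proteins of mitochondria did not pass. Dnajc19, part of the motor that pulls proteins into the matrix, had 1178, 1118, 1208 and 1131 units in KO and 1097 and 590 in WT (log2 0.52, adjusted p = 0.143). WT replicate 1 is close to the KO lines and WT replicate 2 far below them. Dnajc11, of the cristae-forming complex, had 1969 to 2090 units in KO and 1538 and 1825 in WT (adjusted p = 0.107). Dnajc30 had 204 to 303 units in KO and 198 in both WT libraries (adjusted p = 0.174), and Dnajc15 had 354 to 383 in KO and 340 and 396 in WT. Over the 8 members placed in mitochondria 1 rose and 7 did not pass, 12.5% called against 17.1% of all genes. For 4 of the 8 all KO lines were above both WT libraries, 50% against 24.1% of all genes. None had all KO lines below. The median log2 difference of the 8 was 0.30, against 0.04 over all genes. Of the 15 measured genes of the mitochondrial folding and protease list, only Pam16 passed (6.67%, against 17.1% of all genes). It is the partner of Dnajc19 in the import motor and had 533, 520, 592 and 488 units in KO, against 398 and 344 in WT (log2 0.51, adjusted p = 0.037).

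The remaining called member is Dnajb5 (ENSMUSG00000036052, chromosome 4, 42949814 to 42959425, plus strand), a cytosolic J protein related to Dnajb1. It had 592, 457, 468 and 432 units in KO, against 308 and 153 units in WT. The KO mean of 487 ± 71.4 units was 2.11-fold the WT mean of 230 ± 110 units (log2 1.10, SE 0.266, adjusted p = 0.0345, limma). The WT libraries differ 2.01-fold between themselves, and the log2 difference was 0.63 without WT replicate 2 and 1.57 without WT replicate 1. Dnajb4, its close relative, had 148 to 208 units in KO and 194 and 29 in WT, so the KO lines lie around WT replicate 1 and far above WT replicate 2.

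The main HSP70 partners among the DnaJ proteins of the cytosol overlapped between groups. Dnaja1 had 6585, 6048, 6202 and 4525 units in KO and 5946 and 5678 in WT. Dnajb6, a suppressor of protein aggregates whose promoter holds a heat shock element, had 4566, 4626, 4342 and 3172 units in KO and 4032 and 4154 in WT. KO line 4 was the lowest line for both genes, and their adjusted p-values were 0.98 and 0.964 (limma). Dnajc5, the cysteine string protein of secretory vesicles, was among the steadiest members, at 1558 to 1668 units in KO and 1525 and 1558 in WT (95% interval -0.14 to 0.26 in log2).

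Dnaja2 and Dnajb1, the 2 members on chromosome 8, varied within both groups. Dnajb1, the classic heat-inducible HSP40, had 948, 1406, 1436 and 1272 units in KO and 853 and 1596 in WT. Dnaja2 had 2700, 4210, 3918 and 3522 units in KO and 2778 and 4759 in WT. Both were lowest in KO line 1 and WT replicate 1, and the median of the 603 chromosome 8 genes was lowest there too. That median, as a log2 deviation from each gene's mean over the 6 libraries, was -0.32 in KO line 1 and 0.22, 0.20 and 0.16 in KO lines 2 to 4. In WT it was -0.34 in replicate 1 and 0.07 in replicate 2. With the chromosome median taken out, the range of Dnajb1 over the 6 libraries shrank to 0.48 from 0.89 in log2, and that of Dnaja2 to 0.52 from 0.81. Neither gene passed with or without this step (adjusted p = 0.822 and 0.613 for Dnajb1, 0.928 and 0.176 for Dnaja2, without and with it). No member lies on chromosome 6, which was shifted in KO line 4 (median 0.42).

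**Figure D5:**
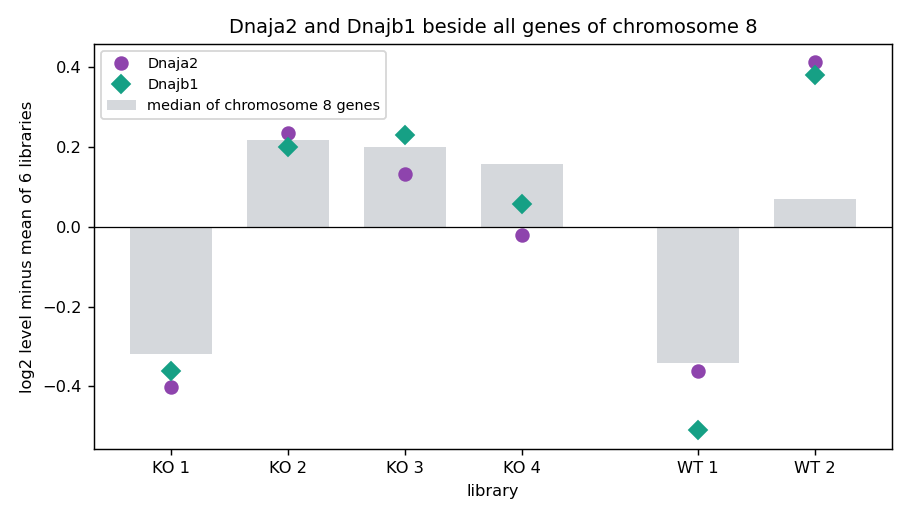
The log2 level minus the mean of the 6 libraries is plotted for Dnaja2 (circles) and Dnajb1 (diamonds) in 4 KO lines and 2 WT libraries, with bars for the median of all 603 chromosome 8 genes. KO line 1 and WT replicate 1 are low for both genes and for the chromosome, and in WT replicate 2 both genes lie above the chromosome median of 0.07.

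None of the other DNAJC genes of the cytosol and nucleus passed. Dnajc7, which binds HSP70 and HSP90 at once, had 3798, 4242, 3836 and 3486 units in KO and 4458 and 5350 in WT (log2 -0.35, adjusted p = 0.0753). Dnajc13, an endosome protein, had 2406 to 2796 units in KO and 3202 and 3012 in WT (log2 -0.26, adjusted p = 0.095). Their KO lines were below both WT libraries. Dnajc6 (auxilin), which strips clathrin from vesicles, ranged most among the DnaJ genes of the KO lines, at 1012, 968, 745 and 520 units, against 848 and 654 in WT. Dnajc2, the J protein of ribosomes, had 2030, 2198, 2018 and 2018 units in KO and 2086 and 2616 in WT. Dnajc9, a histone chaperone, had 1290, 1271, 1388 and 1286 units in KO and 1434 and 1414 in WT (adjusted p = 0.36). Dnajc8, a splicing-associated J protein, had 3318 to 3512 units in KO and 2874 and 3460 in WT, and Dnajc21, a ribosome assembly factor, had 1472 to 1680 in KO and 1671 and 1840 in WT. Across the 23 DNAJC genes 1 fell and 22 did not pass, 4.35% called against 17.1% of all genes.

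Several further members did not pass. Dnajb2, a J protein that guides clients to the proteasome, had 112 to 140 units in KO and 102 and 60 in WT, without overlap (adjusted p = 0.138). Dnajc17 did not overlap either, at 200 to 226 units in KO and 170 and 184 in WT. Dnajc16, Dnajc24, Dnajc27 and Dnajc4 overlapped between groups, as did the 3 genes that share only the name. Of those, Hspbp1, an exchange factor of HSP70, had 674 to 775 units in KO and 770 and 783 in WT. Hspb11, a part of the ciliary transport complex, had 110 to 128 units in KO and 72 and 114 in WT.

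Small heat shock proteins did not pass and did not share a direction. Hspb1 (HSP25), an actin-binding holdase, had 5126, 3760, 4334 and 3512 units in KO and 4925 and 7108 in WT (log2 -0.51, adjusted p = 0.109, limma). Hspb6 (HSP20) had 68, 125, 113 and 152 units in KO and 55 and 7 in WT (log2 1.69, adjusted p = 0.0629). Hspb8, which works with Bag3 in clearing aggregates, had 976 to 1268 units in KO, between the WT values of 944 and 1729. The WT libraries thus differ 7.86-fold for Hspb6 and 1.83-fold for Hspb8.

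The wider heat shock network was tested from lists of partners and targets outside the family. Of 109 measured genes in these lists 4 rose and 8 fell, 11% against 17.1% of all genes. None of the 4 measured genes of the heat shock factor list passed. They are Hsf1 and Hsf2 and the genes of 2 proteins that bind such factors, Hsbp1 and Hsf2bp. Hsf1, the main switch of the heat shock response, had 452 to 552 units in KO and 489 and 600 in WT, and Hsf2 had 881 to 952 in KO and 896 and 952 in WT. Among 19 measured target genes of Hsf1, 1 rose (Stip1), 4 fell and 14 did not pass. That is 26.3% called against 17.1% of all genes, and 21.1% called lower against 7.34%. The median log2 difference of the 19 was 0.08, against 0.04 over all genes, so the list as a whole did not lean lower. Serpinh1 (HSP47), the collagen chaperone, had 578, 568, 578 and 782 units in KO, against 1649 and 1270 in WT (log2 -1.20, adjusted p = 0.00853, limma). Cryab, a small heat shock protein by sequence, had 88, 72, 100 and 47 units in KO, against 308 and 169 in WT (log2 -1.45, adjusted p = 0.032). Both fell in the lines where the feeder fibroblast markers given above were low, and the part of feeder cells in this was not tested.

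The other targets that fell were Sqstm1 and Ubb. Sqstm1 (p62), an autophagy receptor, had 2892, 2748, 2460 and 2913 units in KO, against 6441 and 3903 in WT (log2 -0.86, adjusted p = 0.0269, limma). Its log2 difference was -0.50 without WT replicate 1 and -1.23 without WT replicate 2. The ubiquitin gene Ubb had 12775, 10374, 12182 and 11412 units in KO, against 14342 and 20661 in WT (log2 -0.56, adjusted p = 0.0495). Without WT replicate 2 its log2 difference was -0.30 and did not pass (adjusted p = 0.147). Among 13 measured exchange factors of HSP70, which include 4 members, Bag4 rose (log2 0.73, adjusted p = 0.0402, limma) and Bag5 fell (log2 -0.90, adjusted p = 0.0375, limma). That is 15.4% called, against 17.1% of all genes. Bag4 lies on chromosome 8 and still passed with the chromosome median taken out (log2 0.53, adjusted p = 0.0277). Bag3, which ties HSP70 to small HSPs, had 1157 to 1431 units in KO and 1382 and 1428 in WT. In the cytosolic chaperonin and its feeder prefoldin, 1 of 17 measured genes passed, 5.88% against 17.1% of all genes. It was the prefoldin subunit Pfdn1, which fell (log2 -0.43, adjusted p = 0.0329, limma).

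Libraries differed among themselves for part of the family. For 14 members the WT values differed at least 1.5-fold, Hspa12a with its 0 included, and for 7 members the KO lines did. Neither count was set beside a share over all genes. The widest WT gaps were those of Hspb6 and Dnajb4 (6.69-fold), followed by Dnajc18 and Hspbap1 (742 and 1588 units in WT replicates 1 and 2). Of the 55 members whose KO values vary, KO line 1 was the lowest for 20 and the highest for 21, and KO line 4 was the lowest for 19.

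Most calls depended on single libraries. Where a WT library was omitted, the WT group was 1 library, the spread came from the KO lines alone, and the lone WT library was assumed to vary as they do. With single libraries left out, Dnajb11 and Dnajc3 passed in 4 of 6 fits (adjusted p up to 0.0713 and 0.0786). Both lost the call without KO line 2 and without KO line 3. Hspa8 passed in 2 of the 6, without KO line 3 and without WT replicate 2. Dnajb12, Dnajb14 and Dnajb5 passed in 1, without WT replicate 1, and Dnaja3 in 1, without KO line 4. Among the partner genes Derl1, Ppp1r15a and Serpinh1 passed in all 6, Sqstm1, Cryab and Pam16 in 2, and Bag4, Bag5, Ero1l, Stip1, Pfdn1 and Ubb in 1. The direction of the 7 members' differences was the same in each of these fits. The count of called members was 0 when KO line 2 was omitted, 1 when KO line 3, 2 when KO line 1 and 3 when KO line 4 was. It was 16 without WT replicate 1 and 6 without WT replicate 2, against 7 with all libraries. Over all genes the share called ran between 4.3% without KO line 2 and 30.1% without WT replicate 1.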

How the data were processed

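Total RNA of 4 KO lines and 2 WT libraries was sequenced. RSEM 1.2.17, Bowtie2 2.2.0 and the build mm10 are named in the submitters' processing notes, without their roles; how values were normalized is not stated. The deposited values are a score that the authors normalized to one distribution in all libraries, rounded to whole numbers and named CPM, per the file headers and the values. They sum to between 14612799 and 14722877 in each library and share their top values, as neither read counts nor CPM would. Depth is unknown, and intervals cover the spread between samples only.

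Values were divided by 14.7 (the mean library total over 1000000), and log2(value + 1) was fitted in limma 3.58.1 (R 4.3.3) over 10989 genes with a mean-variance trend. Genes needed a scaled value of 1 in 2 libraries, which removed none. P-values are two-sided with Benjamini-Hochberg adjustment over all genes. The procedure was tested on simulated data with independent normal noise. These lacked the shared steps and the cap of the deposited values, so that test cannot show that the calls here are sound. Fold differences of low genes are understated on this scale. Groups came from the labels, which give 4 and 2 samples although the series text speaks of triplicates. Alternatives changed the scaling, pseudocount, filter, variance model, block and libraries.

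Members, lists and tests were chosen with earlier results of these data known. Named were all called members, a fixed list of 20 well-known ones (Hspa1a and Hspa12b are not analysed here), the extremes of each class, members with an outlying KO line, Ddx5, Hsf1, Hsf2 and called partner genes. Further genes were named after their values were seen. Promoter sequences are from RefSeq.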

Additional observations from a re-analysis of the deposited data

Results flagged for a closer look

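In 6 of 55 members with varying KO values, 1 KO line stood apart from the other 3, with a gap to its neighbour beyond Dixon's 95% critical value for 4 samples. Chance alone gives this in about 1 of 20 groups of normally distributed values without ties. Dnajc2 was higher in KO line 2, at 2198 units, than in the other lines (2018 to 2030 units). Dnajc9 stood at 1388 units in KO line 3 and at 1271 to 1290 units in the others. The remaining 4 lie among the most abundant genes, where values are shared steps of the table. In each of them the other 3 KO lines tie on 1 value. Any gap would then pass the critical value, and the rate above does not apply. Hspd1 had 24993 units in KO line 4 and 36433 in the others, and Hspa8 had 24983 units in KO line 3 and 29812 in the others. Hspa9 had 16069 units in KO line 2 and 14390 in the others, and Hsp90b1 had 14379 units in KO line 3 and 16051 in the others. The last 3 genes each differ by 1 step of the table.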

How the results depend on the processing

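The 7 called members kept their direction under the 16 alternatives, and of 112 values 67 stayed past the threshold and 45 did not. The alternatives with no filter and with a filter at a scaled value of 5 removed no gene. They repeat the main fit, so their values among the 112 could not leave the threshold. The counts of 3 members higher and 4 lower were 0 and 0 with array weights and 0 and 0 with the replicate block. With single libraries left out they ran between 0 and 8 in each direction. The counts of partner genes, 4 higher and 8 lower, were 1 and 6 without the mean-variance trend, 0 and 2 with array weights and 0 and 0 with the replicate block. Lower partner genes numbered 13 with TMM scaling and 15 with chromosome-median centring. With single libraries left out the partner counts ran between 0 and 9 higher and between 3 and 16 lower. Over all genes, 1878 were called with all libraries, 382 with array weights, 20 with the replicate block, and 472, 572, 1223 and 3304 without KO line 2, KO line 3, KO line 1 and WT replicate 1. The replicate numbers are names only and nothing in the labels pairs the samples. KO lines 3 and 4 have no WT library of the same number. With the replicate block the difference therefore came from the libraries numbered 1 and 2 alone, so that fit cannot decide on the calls. The cause of the other shifts was not tested. Hspa13 passed with chromosome-median centring (adjusted p = 0.0363, limma) and Hspa12a did too (adjusted p = 0.049).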
